A study of Caenorhabditis elegans with 6 samples.

Results

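The muscle attachment genes of Caenorhabditis elegans were followed in embryos of a wild-type strain and of a yap-1 mutant. In body wall muscle the actin thin filaments are anchored at dense bodies and the myosin thick filaments at M-lines, and both structures sit on clusters of integrin in the muscle membrane. Integrin is a pair of membrane-spanning subunits that hold the basement membrane outside the cell and recruit a chain of adaptor proteins inside it, through which contraction is passed to the epidermis and cuticle. The genes of the pat class are named for the paralysis and arrested elongation of embryos that lack them. The 9 genes chosen by name were pat-2 and pat-3, the alpha and beta integrin subunits of muscle, pat-4 (integrin-linked kinase), unc-97 (PINCH), pat-6 (parvin), unc-112 (kindlin), unc-95 (a LIM domain protein of the attachment sites), deb-1 (vinculin) and atn-1 (alpha-actinin). The platform annotation gave them 15 of the 22548 probe sets that were not controls, 2 each for 6 genes and 1 each for pat-6, unc-95 and atn-1. All 15 were bright enough to be tested, at intensities from 445 to 6323, and all 9 symbols matched the RefSeq gene table.

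The samples were whole embryos of the standard wild-type strain N2 and of yap-1(ys38), a mutant of the worm counterpart of the YAP coactivator, with 3 biological replicates of each strain and 1 Affymetrix array for each. Arrays are called here by strain and replicate number. Embryos were released from gravid adults by bleaching, and no staging step or age is given in the sources used here. The study sought genes that act downstream of the Hippo pathway in cell polarity. The labels do not say what the ys38 allele changes, and neither strain is described as carrying any other mutation. The study left N2 array 2 out because it was unlike its group, so strains were compared on N2 arrays 1 and 3 and the 3 mutant arrays, with N2 array 2 shown beside them. Signal for yap-1 itself was 267, 443 and 555 on N2 arrays 1, 2 and 3 and 371, 260.4 and 302 in the mutant arrays, with overlapping strains. Its place relative to the allele is not known, so it does not check the genotype. In whole embryos, fewer muscle cells and less RNA per muscle cell cannot be told apart.

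No gene of the attachment chain passed the test between the strains. With limma, 0 of the 15 probe sets passed an adjusted p of 0.05 (lowest adjusted p 0.9998), against 0% of the 13529 probe sets tested. None had an unadjusted p under 0.05 (lowest 0.127, unc-95), against 1.04% of all, and the methods' t-test also gave none at that threshold. The log2 fold changes, mutant over wild type, ran from -0.37 to 0.30, with 8 probe sets higher and 7 lower. With all 6 arrays they ran from -0.29 to 0.50, 12 higher and 3 lower, and again 0 passed, against 0% of all probe sets tested. In the fit on 5 arrays, without N2 array 2, each of the 15 confidence intervals at the 95% level lay within a 2-fold change in either direction. Their outermost bounds were 0.549-fold and 1.78-fold. At the brightest probe set of each gene the median log2 fold change was -0.09 over the 9 genes and -0.004 over all 10237 genes tested. The median standard error was 0.19 for the member probe sets and 0.27 for all.

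**Figure D1:**
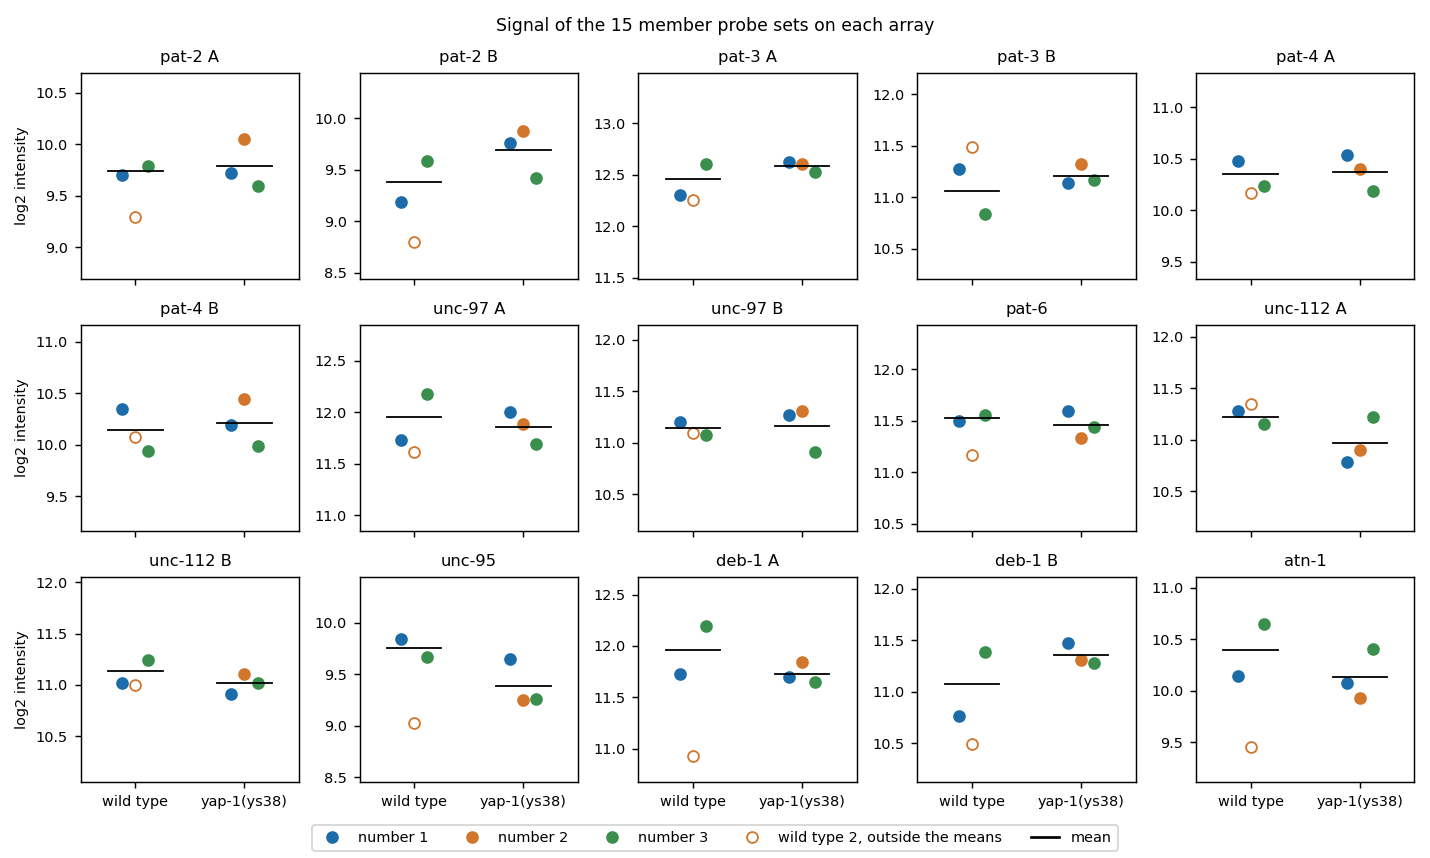
Log2 intensity of the 15 probe sets on each of the 6 arrays, wild type on the left and yap-1(ys38) on the right of each panel, coloured by replicate number. A and B are the brighter and the dimmer probe set of a gene, every panel spans 2 log2 units, and bars are means without N2 array 2. The mutant arrays lie clear of N2 arrays 1 and 3 in the unc-95 panel alone.

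The integrin subunits were the first members of the chain. The brighter probe set of pat-3, the beta subunit (174553_at), read 5067 and 6226 on N2 arrays 1 and 3, 6323, 6217 and 5906 in the mutant arrays, and 4876 on N2 array 2. On the log2 scale its means were 12.46 ± 0.21 (SD, n = 2) and 12.59 ± 0.05 (SD, n = 3), a log2 fold change of 0.13 (SE 0.15). The mutant arrays were close to each other and to N2 array 3, and the strains overlapped. The dimmer pat-3 probe set (191710_at) read 2479.7 and 1833 on N2 arrays 1 and 3 against 2254, 2563 and 2304 (log2 fold change 0.15, SE 0.19), with 2872 on N2 array 2. Here N2 array 3 was the lowest and N2 array 2 the highest of the 6, whereas at the brighter probe set N2 array 2 was the lowest.

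For pat-2, the alpha subunit that pairs with pat-3 in muscle, the brighter probe set (192997_s_at) read 831 and 887 on N2 arrays 1 and 3 against 843, 1058 and 774 in the mutant (log2 fold change 0.04, SE 0.21), with 628 on N2 array 2. Its dimmer probe set (173050_at) read 584 and 768 against 870.2, 939.5 and 687, with 445 on N2 array 2. That log2 fold change, 0.30 (SE 0.23), was the highest of the 15, and the strains still overlapped, since mutant array 3 read below N2 array 3.

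Inside the membrane, integrin-linked kinase, PINCH and parvin bind one another as a complex on the integrin tail. For pat-4, an adaptor with a kinase-like fold, the brighter probe set (192374_s_at) read 1429 and 1203 on N2 arrays 1 and 3 against 1483, 1349.7 and 1164 in the mutant (log2 fold change 0.02, SE 0.20), with 1148 on N2 array 2. The dimmer one (173317_s_at) read 1301 and 981 against 1168, 1396 and 1012 (0.07, SE 0.22), with 1078 on N2 array 2. At both probe sets the strains covered almost the same range. The brighter probe set of unc-97, whose protein is built of LIM domains (175680_at), read 3388 and 4619 on N2 arrays 1 and 3 against 4097, 3785 and 3301 (log2 fold change -0.09, SE 0.18), with 3124 on N2 array 2. Its dimmer one (193526_s_at) read 2362 and 2162 against 2476, 2533 and 1922 (0.02, SE 0.18), with 2189.6 on N2 array 2. N2 array 3 was the highest array at the first and among the lowest at the second. The single pat-6 probe set (188184_s_at) read 2892 and 3012 on N2 arrays 1 and 3 against 3086, 2583 and 2767 in the mutant (-0.07, SE 0.16), with 2298 on N2 array 2. Of the members pat-6 had the closest pair of wild-type values, and the mutant arrays lay on both sides of them.

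unc-112, the kindlin that brings integrin-linked kinase to the attachment site, read 2488 and 2279 on N2 arrays 1 and 3 against 1765, 1909.7 and 2393 in the mutant at its brighter probe set, 193683_s_at (log2 fold change -0.25, SE 0.19), with 2614 on N2 array 2. Mutant arrays 1 and 2 lay below every wild-type array, and mutant array 3 lay between N2 arrays 1 and 3. The dimmer probe set (172018_x_at), of a class in which probes can bind other transcripts, read 2080.4 and 2425 against 1932, 2206 and 2080.5 (-0.12, SE 0.17), with 2054 on N2 array 2, and overlapped. unc-95 (176968_s_at) read 916 and 814 on N2 arrays 1 and 3 against 803, 608 and 613 in the mutant, with log2 means of 9.75 ± 0.12 (SD, n = 2) and 9.39 ± 0.23 (SD, n = 3). It was the 1 probe set of 15 at which the mutant arrays did not overlap N2 arrays 1 and 3, where 10.8% of all probe sets tested showed no overlap. Its log2 fold change was -0.37 (SE 0.22), the lowest of the 15. N2 array 2 read 520.2, below all mutant arrays, and with all 3 wild-type arrays 0 of the 15 were free of overlap, against 4.89% of all probe sets.

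**Figure D2:**
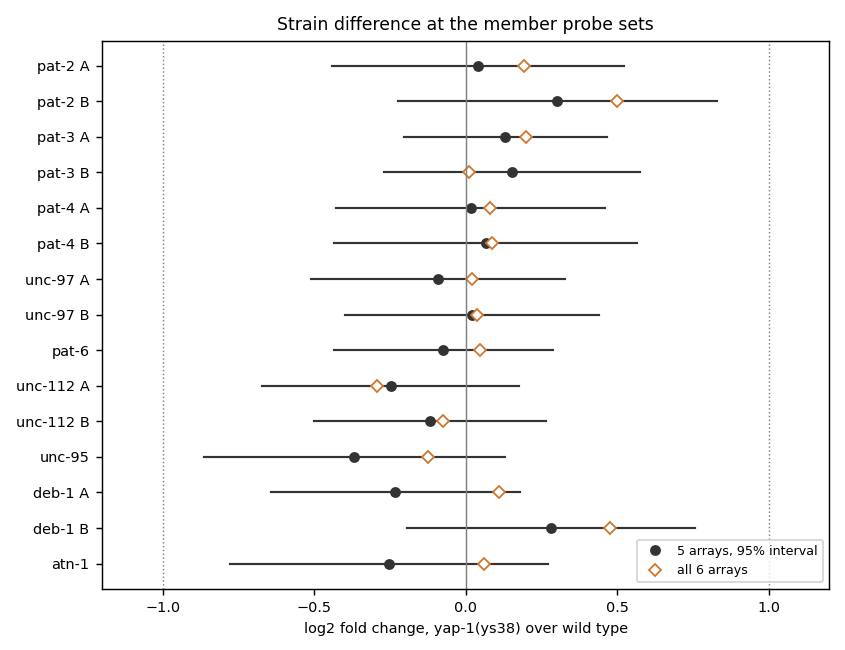
Log2 fold change of yap-1(ys38) over wild type at each of the 15 probe sets (A brighter, B dimmer). Filled points are the fit on 5 arrays with 95% confidence intervals, open diamonds the fit that adds N2 array 2, and dotted lines mark 2-fold. All 15 intervals include 0 and stay within 2-fold.

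Vinculin and alpha-actinin are proteins of the dense bodies, where thin filaments are anchored. deb-1 read 3387 and 4697 on N2 arrays 1 and 3 against 3317, 3676 and 3208 in the mutant at its brighter probe set, 174754_at (log2 fold change -0.23, SE 0.18), with 1955 on N2 array 2. Its dimmer probe set (176518_at) read 1737 and 2682 against 2841, 2543 and 2494 (log2 fold change 0.28, SE 0.21), with 1441 on N2 array 2. The probe sets of this gene thus lay on opposite sides of 0. In both, the mutant arrays were close together (SD 0.10 on the log2 scale) and the wild-type arrays far apart (SD 0.33 and 0.44). The brighter probe set gave 0.003 without N2 array 3, and the dimmer one -0.033 without N2 array 1. atn-1, which crosslinks actin (189086_s_at), read 1128 and 1599.5 on N2 arrays 1 and 3 against 1079, 975 and 1356 (-0.25, SE 0.23), with 700.1 on N2 array 2. Its log2 fold change was -0.51 without N2 array 1 and -0.002 without N2 array 3.

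At 12 of the 15 probe sets the gap between N2 arrays 1 and 3 was wider than the gap between the strain means. Single arrays differ more than means do even without a strain difference, so this count is no result about the members. Of the 6 genes with 2 probe sets, 4 had both log2 fold changes on the same side of 0 (pat-2, pat-3 and pat-4 higher, unc-112 lower) and 2 did not (unc-97 and deb-1). The step from N2 array 1 to N2 array 3 went opposite ways within 3 of these genes: 0.30 and -0.44 for the pat-3 probe sets, 0.45 and -0.13 for unc-97 and 0.22 and -0.13 for unc-112, brighter first for pat-3 and unc-97 and dimmer first for unc-112. Signal at the 3-prime end of 4 control transcripts, relative to their 5-prime end, is a sign of how intact the RNA was. Its mean log2 ratio was 2.68, 3.64 and 3.74 on N2 arrays 1, 2 and 3, and 2.86, 3.00 and 3.07 in the mutant arrays. Its part in the disagreement between probe sets was not tested.

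Arrays with the same replicate number resembled each other across strains, so the differences were also read number by number. At number 1 the members were split, with 8 probe sets higher in the mutant and 7 lower and a median log2 ratio of 0.02. At number 2, with the wild-type array that the study set aside, 13 were higher and 2 lower (median 0.28), and at number 3 it was 3 higher and 12 lower (median -0.16). Over all probe sets tested these medians were -0.01, 0.04 and 0.02. The widest swings belonged to deb-1, whose brighter probe set gave -0.03, 0.91 and -0.55 at numbers 1, 2 and 3, and to the dimmer pat-2 probe set (0.58, 1.08 and -0.16). pat-6 moved little (0.09, 0.17 and -0.12). No member probe set kept the same direction at all 3 numbers, whereas 23.5% of all probe sets tested did. With the number as a block on all 6 arrays, limma called 0 of the 15 and 0% of all probe sets. The block on the 5 arrays, where number 2 has no wild-type array, called 0 of the 15 and 0.0887% of all probe sets.

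**Figure D3:**
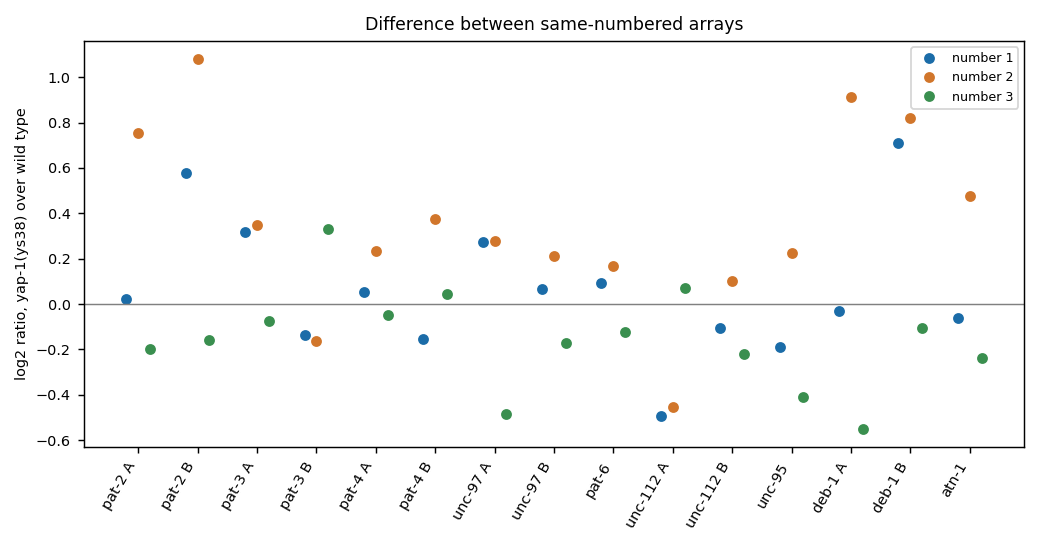
Log2 ratio of yap-1(ys38) over wild type between arrays of the same replicate number, for each of the 15 probe sets (A brighter, B dimmer). Number 2 lies above 0 for 13 probe sets and number 3 below 0 for 12, and no probe set has all 3 points on 1 side.

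N2 array 2 was low for most members, but not evenly across them. It read below both other wild-type arrays at 11 of the 15 probe sets, against 40.3% of all probe sets tested. Taking the log2 ratio of N2 array 2 to the mean of N2 arrays 1 and 3 at the brighter probe set of each gene, deb-1 stood at -1.03, atn-1 at -0.94 and unc-95 at -0.73. The integrin subunits stood at -0.45 (pat-2) and -0.20 (pat-3). In the adaptor complex pat-6 stood at -0.36, unc-97 at -0.34 and pat-4 at -0.19, and unc-112 stood at 0.13. Read as a share of the mean of the other wild-type arrays, deb-1 was at 49.0% and atn-1 at 52.1%, while pat-3 was at 86.8% and unc-112 at 110%. The dimmer probe sets gave -0.58 for deb-1, -0.59 for pat-2, 0.43 for pat-3, -0.07 for pat-4, -0.05 for unc-97 and -0.13 for unc-112, so pat-3 and unc-112 changed side between their probe sets. These ratios set 1 array against 2 and have no replicate check.

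**Figure D4:**
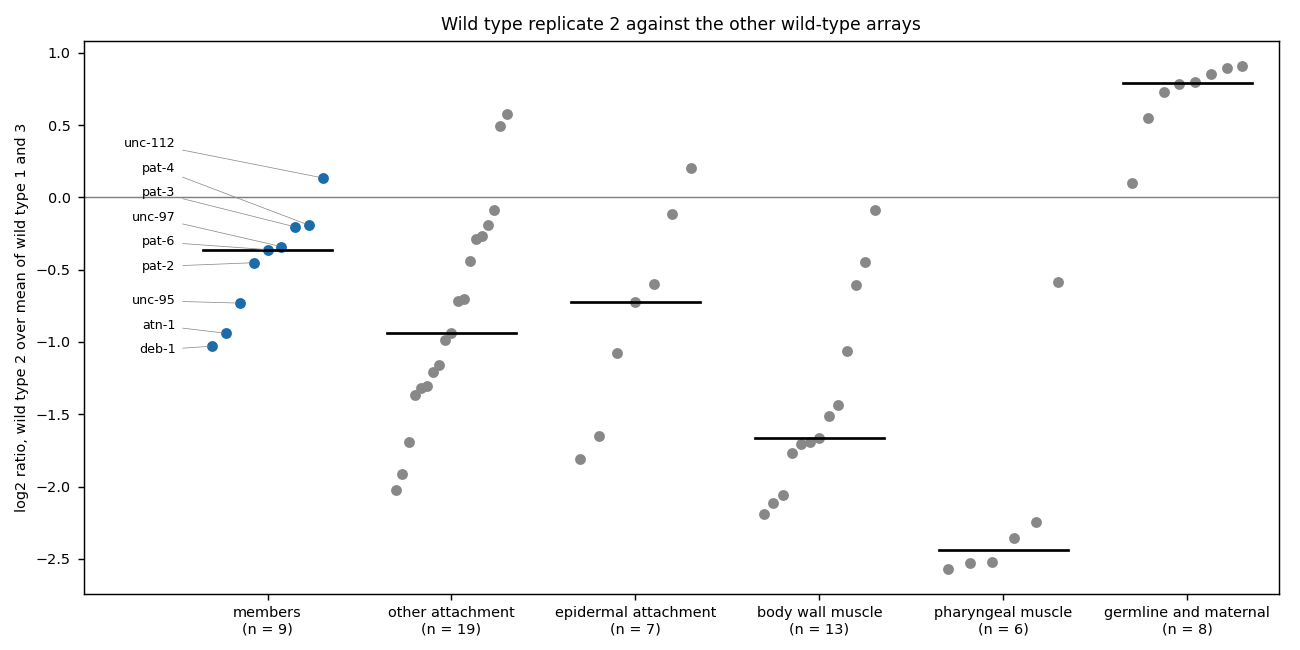
Log2 ratio of N2 array 2 to the mean of N2 arrays 1 and 3, 1 point per gene at its brightest tested probe set, with bars at the medians. The 9 members, labelled, run from -1.03 (deb-1) to 0.13 (unc-112), the body wall muscle markers have a median of -1.67 and the germline and maternal genes one of 0.79.

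The markers of muscle and of other cells moved on the same array. All 13 body wall muscle markers passed the filter on dim probe sets, with a median log2 ratio of -1.67, and 12 of them read below both other wild-type arrays. Their summed intensity was 25827 on N2 array 2, 46614 and 59657 on N2 arrays 1 and 3, and 47762, 40218 and 50133 on the mutant arrays. The brightest genes weigh most in this sum, and act-4 alone gave 14633 on N2 array 2 and 18826 and 21109 on N2 arrays 1 and 3. The myosin heavy chain genes unc-54 (535 against 1735 and 1728) and myo-3 (438 against 1127 and 1379) and the paramyosin gene unc-15 (3467 against 9166 and 13189) had ratios of -1.69, -1.51 and -1.67. hlh-1, the MyoD counterpart that specifies muscle, read 353 against 346 and 407 (-0.09). The 6 pharyngeal muscle markers had a median of -2.44, the 5 neuron markers one of -1.36 and the 5 epidermis markers one of -0.31. Of the neuron markers 4 read below both other wild-type arrays and 1 above both, unc-119 (0.30). Of the epidermis markers 4 read below both and 1 above both, elt-1 (0.54). All 8 germline and maternal genes read above both other wild-type arrays (median 0.79), with a summed intensity of 29956 against 20377 and 23546. The median over all genes tested was 0.002. The part of cell makeup, embryo age or RNA quality in the low values of the members was not tested.

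Other genes of muscle attachment, listed by name with earlier results of these data known, were examined for the strain difference too. Of 19 measured and tested, 0 passed the test, 10 lay higher and 9 lower, and the median log2 fold change was 0.006. unc-98, a zinc finger protein that links PINCH to myosin, read 408 and 463 on N2 arrays 1 and 3 against 319, 332 and 378 in the mutant (log2 fold change -0.35, SE 0.23) and was free of overlap, but N2 array 2 read 169, below all mutant arrays. pix-1, an exchange factor for small GTPases, read 111 and 101 against 179, 122 and 123 (0.39, SE 0.33) and was free of overlap the other way, with 88.0 on N2 array 2. At its brightest tested probe set no other gene of the 19 was free of overlap with N2 arrays 1 and 3. On the same basis 11% of all 10237 genes tested were (1127 genes). A dimmer probe set of tln-1 was also free of overlap, reading 759 and 675 against 824, 889 and 784 in the mutant. Its log2 fold change was 0.22 (SE 0.20), and N2 array 2 read 677. The other tested tln-1 probe sets overlapped. pxl-1, the paxillin counterpart, read 357 and 466 against 359, 220.04 and 344 (-0.44, SE 0.29). dim-1, an immunoglobulin-domain protein near the dense bodies, was next lowest in p at the brightest tested probe sets (-0.10, SE 0.15). Its other tested probe set gave 0.02 (SE 0.16). alp-1, the PDZ-LIM protein of the ALP and Enigma family (-0.12, SE 0.18), and cpna-1, a copine that binds parvin (-0.14, SE 0.24), followed. In N2 array 2 the same 19 genes had a median log2 ratio of -0.94 to the other wild-type arrays, with 16 below both, against 41.2% of all genes tested. They ran from pxl-1 at -2.02 to ina-1, the other alpha integrin gene, at 0.58. unc-52, the perlecan that muscle integrin holds in the basement membrane, stood at -1.16, zyx-1 zyxin at -1.92 and tln-1 talin at -0.29. Each of these ratios is from the brightest tested probe set of the gene. The other tested probe sets ran from -2.87 to 0.26 for tln-1, stood at -1.84 and -1.49 for unc-52 and at -0.10 for ina-1.

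On the epidermal side, fibrous organelles carry the force from muscle to cuticle. Of 9 such genes 8 were measured and 7 tested, and 0 passed the test (2 higher, 5 lower, median log2 fold change -0.06). At their brightest tested probe sets vab-10, the spectraplakin, stood at -0.29 (SE 0.22) and let-805 myotactin at -0.21 (SE 0.27). mua-3, a transmembrane receptor of the organelles, stood at -0.06 (SE 0.24) and pat-12 at 0.05 (SE 0.22). The intermediate filament genes ifb-1 and ifa-3 stood at -0.06 (SE 0.16) and 0.08 (SE 0.23). The other tested vab-10 probe sets gave 0.32 (SE 0.24), 0.30 (SE 0.38) and 0.06 (SE 0.34), and that of let-805 gave 0.12 (SE 0.29). Those of pat-12 and ifb-1 gave -0.03 (SE 0.22) and -0.008 (SE 0.21). On N2 array 2 the 7 epidermal attachment genes tested had a median log2 ratio of -0.72 to the other wild-type arrays. Of them 6 read below both, against 41.2% of all genes tested, and the median of the 9 members was -0.36. The body wall muscle markers had 3 genes higher and 10 lower, none past the test, with a median of -0.21 and hlh-1 at -0.45 (SE 0.28). No test of the difference between these lists and the 9 members was made.

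The mean profile of the 9 genes over the 6 arrays, each gene centred on its own mean, was 0.06, -0.32 and 0.21 on N2 arrays 1, 2 and 3 and 0.06, 0.01 and -0.02 in the mutant arrays. Among the members pat-6 lay closest to it (root mean square difference 0.07 log2 units) and unc-112 farthest (0.31), against a median of 0.38 over all genes tested. The 9 genes themselves make up this mean, so lying nearer to it than the median gene is no sign that they move together. The 5 other genes with the most similar centred profile were the ribosomal protein genes rpl-29 (0.03) and rps-24 (0.03), ensh-1 (0.03), dlg-1 (0.04), the Discs large protein of epithelial junctions, and clc-6 (0.04). In all 5 N2 array 2 read lowest and N2 array 3 highest, as in the mean of the members.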

How the data were processed

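Per the series' design text and the submitters' processing notes, the authors hybridised total RNA to 1-colour Affymetrix arrays, computed a MAS5 signal intensity per probe set and scaled each array globally; the deposited intensities are linear, and their detection calls were not used here. The version of the array software is not given here. The values were log2-transformed only. Of 22548 probe sets that are not controls, the 13529 brightest, above the 40th percentile of the 6-array mean log2 value (53.5 on the linear scale), were fitted together in limma 3.58.1 (R 4.3.3). The moderated test was two-sided, with a variance trend on intensity in eBayes and Benjamini-Hochberg adjustment over all of them at 0.05, and was tested on simulated data. Median intensity was 86.6 on N2 array 2 and 118 to 133 on the other 5. The small number of arrays sets the precision.

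Names came from the platform annotation, used where it gave 1 symbol; 8 member probe sets are of the s class, whose probes may be shared between transcripts, and 1 of the x class, whose probes may bind other genes. Levels of different probe sets were not compared. The rule named every member, up to 6 genes per attachment list by lowest p, 4 muscle markers and the 5 genes nearest in profile; ina-1, unc-52, zyx-1 and tln-1 were named after their values were seen. Members and lists were chosen with earlier results of these data known. Besides members, other attachment genes and epidermal attachment genes, the marker lists were body wall and pharyngeal muscle, intestine, epidermis, neurons, germline and maternal genes and adult yolk.

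Replicate numbers come from the sample titles. Deviations from strain means correlated at 0.364, 0.345 and 0.445 between same-numbered arrays and at 0.015 or less between others, and by this the numbers pair the arrays. Alternatives were the methods' t-test, another set of arrays, the block, other scalings and filters, a floor, other variance models and each replicate left out.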

Additional observations from a re-analysis of the deposited data

How the results depend on the processing

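No member probe set was called under any of the alternatives (lowest adjusted p 0.745, deb-1 without wild type replicate 1), and no other attachment gene was. Over all probe sets the count called was 12 with the replicate block on 5 arrays, 0 with the same block on all 6 arrays, and 0 to 3 on leaving out 1 replicate, 3 of them without wild type replicate 1. Of 240 member values under alternatives, 213 kept their direction and 27 turned. The other filters, the floor, the other variance models and the t-test left member log2 fold changes unaltered, so those could not turn. The block on 5 arrays repeated the values found without the mutant replicate that has no wild-type partner there. The block on all 6 arrays repeated those of the unblocked fit. These counts are therefore no measure of stability. In all, 4 probe sets (the dimmer of pat-2, both of unc-112 and that of unc-95) never turned, and the cause was not tested. With all 6 arrays, blocked or not, the member median was 0.059 and that of the other attachment genes 0.24, and unc-97 (0.022, brighter probe set), pat-6 (0.047), deb-1 (0.11, brighter) and atn-1 (0.059) turned positive. With the replicate block on 5 arrays, where 1 residual degree of freedom remains, pat-2 (-0.089, brighter), pat-4 (-0.055, dimmer) and unc-97 (-0.051, dimmer) turned negative, and with median centring pat-4 (-0.0061, brighter) and unc-97 (-0.0011, dimmer) did. The block changed no call of a member. Leaving out 1 replicate, where a lone wild-type array is assumed to vary like the mutant arrays, moved the member median from -0.18 to -0.0024 and that of the other attachment genes from -0.077 to 0.040. The same step moved pat-2 from -0.089 to 0.14 (brighter), pat-3 from -0.019 to 0.28 (brighter) and -0.065 to 0.37 (dimmer), and pat-4 from -0.11 to 0.14 (brighter) and -0.14 to 0.27 (dimmer). It moved unc-97 from -0.31 to 0.13 (brighter) and -0.051 to 0.15 (dimmer), and deb-1 from -0.47 to 0.0034 (brighter) and -0.033 to 0.59 (dimmer). Without turning, the dimmer pat-2 probe set ran from 0.10 to 0.50, pat-6 from -0.14 to -0.014, unc-112 from -0.38 to -0.16 (brighter) and -0.23 to -0.0074 (dimmer), unc-95 from -0.50 to -0.28 and atn-1 from -0.51 to -0.0024.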

Other observations

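The remaining marker lists were read on the same scale. On N2 array 2 the 6 intestine markers had a median log2 ratio of -0.81 to the other wild-type arrays, but they were split. Below both arrays were 3 genes, asp-1 (-2.43), act-5 (-1.90) and ifb-2 (-1.57). elt-2 (-0.05) and ges-1 (-0.04) lay between them, and elt-7 (0.45) lay above both. The median log2 fold change of the intestine markers, mutant over wild type, was -0.18, with 0 passing the test between strains. Medians of the other lists were -0.26 for pharyngeal muscle, -0.11 for epidermis, -0.12 for neurons, 0.15 for germline and maternal genes and -0.06 for adult yolk, and 0 genes of these lists passed. Of 5 listed yolk protein genes, which are expressed in the adult intestine, 4 were measured, and N2 arrays 1 and 3 were themselves far apart there. Their summed intensity was 11767 on N2 array 2, 6877 on N2 array 1 and 126 on N2 array 3, and 4466, 870.0 and 236 on mutant arrays 1, 2 and 3. On N2 array 3 these genes read from 7.56 (vit-5) to 68.3 (vit-6), so no ratio of N2 array 2 to the other wild-type arrays is given for them.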
